A study of Mus musculus with 6 samples.

Results

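The genes encoded by mitochondrial DNA were examined in mouse skin with and without a mildly active form of YAP, the co-activator that the Hippo pathway holds back. Members were the rows of the count table whose Ensembl identifier belongs, in GENCODE release M21 on GRCm38, to a gene on the mitochondrial chromosome with a symbol starting with mt-. Of the 37 such genes annotated, 25 were found among the 26579 genes of the table. These were 12 protein-coding genes, both rRNA genes and 11 tRNA genes. The other 12 (*mt-Nd4l* and 11 tRNA genes) had no row and could not be analysed. The table has as many rows as the study's methods give for features with any read assigned. A gene without a row thus had no read assigned in any library, or was absent from the annotation used for counting. The low-count filter (1 CPM, meaning counts scaled to the library total, or more in 3 or more libraries) was passed by 15 of the 25: the 12 protein-coding genes, both rRNA genes and a single tRNA gene, *mt-Tw*.

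The 6 libraries were made from skin of the back of the neck, each from a different female at 33 days of age. The animals were 3 wild types and 3 of their littermates with the YAP2-5SA-∆C transgene, called transgenic here, whose product is made in the basal layer of the epidermis. Each biopsy was a whole punch of skin, so the basal epidermal cells that express the transgene were mixed with hair follicles, dermis, fat, muscle and blood. In such tissue, fewer cells of a type and less RNA per cell cannot be told apart. Library totals ranged from 11225705 counts (wild type replicate 3) to 19505036 counts (wild type replicate 2). In wild type replicate 3, 5.27% of all counts fell on ENSMUSG00000045999, which took 0.0634% to 0.288% elsewhere.

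Mitochondrial DNA is a small circle that each cell holds in many copies. Long transcripts are made from both of its strands by a polymerase encoded in the nucleus, and the tRNAs, which lie between the other genes, are cut out to release the rRNAs and mRNAs. The rRNAs build the ribosome of the organelle, and every one of its mRNAs encodes a subunit of the respiratory chain or of ATP synthase, which is completed by subunits made from nuclear genes. In skin, the respiratory chain of keratinocytes is known to be needed for hair follicle growth.

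No mitochondrial gene was called between the genotypes. By the quasi-likelihood test of edgeR, 0 of the 15 members tested had a false discovery rate (FDR) below 0.05, where 2.22% of all 15102 genes tested were called. At an unadjusted p below 0.05 the test picked 1 of the 15, *mt-Rnr1*, against 26.2% of all genes tested. The other tools called 0 members too: the likelihood-ratio test of edgeR, voom and DESeq2 each gave 0 calls and 1 member, *mt-Rnr1*, with an unadjusted p below 0.05. Over all genes tested the likelihood-ratio test called 10.4%, voom 1.65% and DESeq2 10.5%, and 3017, 3986 and 3254 of the 15102 genes had an unadjusted p below 0.05. The libraries of the genotypes overlapped for each of the 15 members, whereas 33.8% of all genes tested had groups that did not overlap.

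Mitochondrial genes took 19.3% to 22.3% of all counts in wild type and 20.8% to 23.1% in transgenic skin. In the order of the replicate numbers, kept throughout, the 2 rRNA genes took 17.2%, 19.6% and 17.9% in wild type against 18.2%, 18.4% and 20.4% in transgenic skin. The 12 protein-coding genes took 2.16%, 2.68% and 2.59% in wild type and 2.57%, 2.55% and 2.65% in transgenic skin. For each library and either class the 95% Wilson interval lay within 0.0225 percentage points of the share, and it covers counting error only. Wild type replicate 1 was the lowest library for both classes, and the 3 transgenic libraries stood inside the range of wild type for the mRNAs. The mean share of the mRNAs was 2.48% ± 0.279 (SD, n = 3) in wild type and 2.59% ± 0.0541 (SD, n = 3) in transgenic skin, so the spread came mostly from wild type. For the rRNAs the means were 18.2% ± 1.26 and 19.0% ± 1.20 (SD, n = 3 each). A library held 6.90 to 7.95 counts on rRNA for each count on mRNA, and the highest and the lowest of these ratios were both from wild type.

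**Figure D1:**
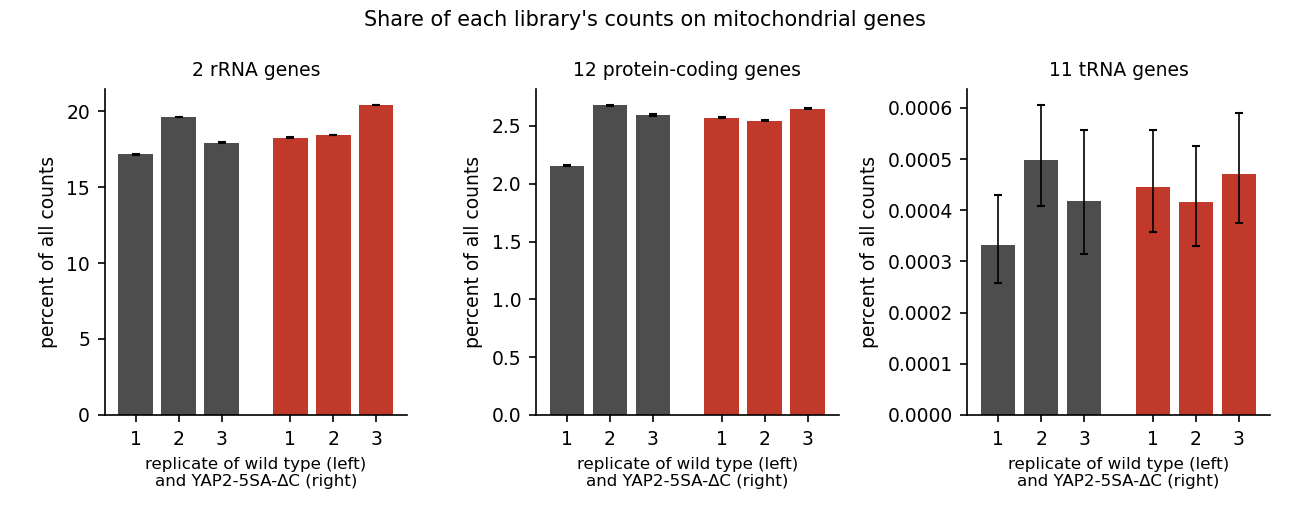
Percent of all counts of a library on the mitochondrial rRNA, protein-coding and tRNA genes, with replicates 1 to 3 of wild type (grey) and of transgenic (YAP2-5SA-∆C) skin (red). Bars start at 0 and lines are 95% Wilson intervals, wide only for the tRNAs, and wild type replicate 1 is the lowest in each panel.

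The rRNAs showed the single difference that reached an unadjusted p below 0.05. *mt-Rnr1* (ENSMUSG00000064337, chrM:70-1024, plus strand), the RNA of the small ribosomal subunit, had 13190, 13520 and 14370 CPM in wild type and 14300, 19160 and 17690 CPM in transgenic skin (CPM here use library sizes scaled by TMM). The groups overlapped by a narrow margin, since transgenic replicate 1 lay just under wild type replicate 3, and the transgenic libraries were spread more widely. Its log2 fold change was 0.32 (standard error 0.12, 95% interval 0.03 to 0.60), with an unadjusted p of 0.0331 by edgeR's quasi-likelihood test and an FDR of 0.153 over all genes tested. Over 17 alternative fits the FDR ran from 0.0513 (DESeq2) to 0.495, and the log2 fold change stayed above 0 in all 17. The unadjusted p, by the test of each fit, was below 0.05 in only 9 of the 17. The p was 0.209 in the bias-adjusted form of the same test, in which the standard error was 0.23. Leaving out 1 library at a time gave log2 fold changes from 0.24 to 0.45. By the quasi-likelihood test the p was 0.00374 without transgenic replicate 1 and 0.0508 to 0.0973 when another library was left out.

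*mt-Rnr2* (ENSMUSG00000064339, chrM:1094-2675, plus strand), the RNA of the large subunit, was the most abundant member. It had 150800, 186200 and 176600 CPM in wild type and 162800, 165100 and 185000 CPM in transgenic skin, where all 3 libraries stood inside the wild type range. The log2 fold change was -0.002 (standard error 0.12, interval -0.28 to 0.27; FDR 0.993). These genes lie in tandem, with a tRNA gene, *mt-Tv*, between them, yet the counts on *mt-Rnr2* per count on *mt-Rnr1* were 11.4, 13.8 and 12.3 in wild type and 11.4, 8.62 and 10.5 in transgenic skin. The ratio was lowest in transgenic replicate 2, the library with the highest *mt-Rnr1* level, and transgenic replicate 1 was below wild type replicate 1 by a narrow margin. Per base of gene, *mt-Rnr2* stood 7.55 ± 0.714 times (SD, n = 3) above *mt-Rnr1* in wild type and 6.13 ± 0.850 times in transgenic skin. This ratio was looked at after the values of both genes were known and was not tested. The labels name a total RNA kit whereas the study's methods speak of mRNA libraries, and a step that selects or depletes RNA acts on rRNA, so the levels of these genes against the mRNAs hold for these libraries only.

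Per length, the mRNAs kept nearly the same order in all 6 mice. In CPM per kilobase of gene, the 3 core subunits of cytochrome c oxidase (complex IV) led: *mt-Co1* at 6070 ± 966 in wild type and 6034 ± 205 in transgenic skin, *mt-Co3* at 4967 ± 715 and 4751 ± 309, and *mt-Co2* at 4355 ± 541 and 4471 ± 329 (SD, n = 3 each). *mt-Atp6* followed at 3260 ± 587 in wild type, then *mt-Nd1* at 1963 ± 332, *mt-Cytb* at 1829 ± 281, *mt-Nd3* at 1363 ± 203 and *mt-Atp8* at 1149 ± 224. At the lower end stood *mt-Nd2* at 605 ± 151, *mt-Nd4* at 546 ± 132, *mt-Nd5* at 339 ± 81.0 and *mt-Nd6* at 84.6 ± 5.21 in wild type. Of the 11 pairs of neighbours in this order, 10 held in 6 of 6 libraries, and the exception was *mt-Nd2* over *mt-Nd4*, which was turned in transgenic replicate 2 only. Within wild type the ranges of neighbours were apart for *mt-Co2* over *mt-Atp6*, *mt-Atp6* over *mt-Nd1*, *mt-Atp8* over *mt-Nd2*, *mt-Nd4* over *mt-Nd5* and *mt-Nd5* over *mt-Nd6*, and overlapped for the rest. The highest and the lowest mRNA differed 71.7-fold in the wild type mean, and 292-fold when only windows with no match in a nuclear transcript (described with the nuclear copies) were counted as length. That alternative could be computed for 8 of the 12. It divides all counts of a gene by its unmatched windows, so by construction a level rises with the matched share. In this way *mt-Nd4* (1498) came to stand above *mt-Nd2* (807), which is not a level measured in unmatched windows.

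**Figure D2:**
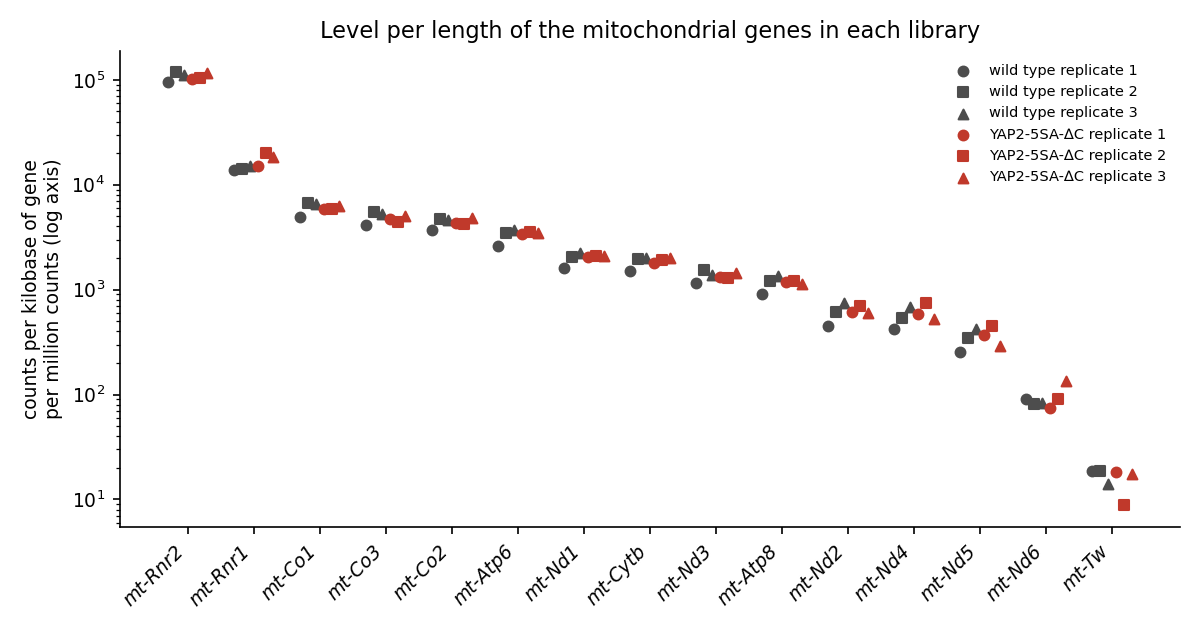
CPM per kilobase of gene (log axis) of the 15 tested mitochondrial genes in each of the 3 wild type (grey) and 3 transgenic (red) libraries. The genes run from the highest wild type mean, *mt-Rnr2*, to the lowest, *mt-Tw*, and wild type replicate 1 is the lowest library for every gene shown but *mt-Nd6* and *mt-Tw*.

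Complex I takes electrons from NADH, and 6 of its mitochondrial subunits were in the table. *mt-Nd1* (ENSMUSG00000064341, chrM:2751-3707) had 1529, 1956 and 2150 CPM in wild type and 1946, 2010 and 1998 CPM in transgenic skin, giving a log2 fold change of 0.08 (standard error 0.13, FDR 0.722). *mt-Nd2* (465.6 to 778.3 CPM in wild type) and *mt-Nd3* (400.0 to 540.7 CPM) had log2 fold changes of 0.08 (standard error 0.18) and -0.005 (standard error 0.12), and their 3 transgenic libraries lay inside the wild type range. *mt-Nd4* and *mt-Nd5*, which follow on the same strand, were spread more widely. *mt-Nd4* had 578.1, 735.8 and 941.9 CPM in wild type and 812.3, 1023 and 715.9 CPM in transgenic skin, with a log2 fold change of 0.18 (standard error 0.20, FDR 0.610). *mt-Nd5* had 466.8, 626.5 and 762.0 CPM in wild type and 680.1, 829.6 and 533.6 CPM in transgenic skin, with a log2 fold change of 0.14 (standard error 0.21, FDR 0.715). In both genes transgenic replicate 2 was the highest and wild type replicate 1 the lowest of the 6 libraries.

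*mt-Nd6* (ENSMUSG00000064368, chrM:13552-14070) is the only mRNA of the minus strand. It had 46.96, 41.78 and 43.02 CPM in wild type and 38.91, 46.97 and 69.50 CPM in transgenic skin. Its mean in transgenic skin rested on replicate 3, which stood above the other 5 libraries, while replicate 1 was the lowest of all 6. The log2 fold change was 0.24 (standard error 0.20, FDR 0.488), moving to -0.03 when transgenic replicate 3 was left out and to 0.43 when replicate 1 of that group was, with FDRs above 0.05 in both fits. The last bases of the annotated *mt-Nd5* (chrM:11742-13565) lie over those of *mt-Nd6* on the other strand. The strand setting of the counting is not given in the sources used here, so reads of the opposite strand in this gene cannot be told apart from its own. The base composition sets it apart as well, with 28.1% G and 5.97% C in the coding strand, against 5.88% to 16.1% G and 22.1% to 30.0% C in the 12 annotated mRNAs of the plus strand.

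*mt-Cytb*, the mitochondrial subunit of complex III, had 1721, 2263 and 2293 CPM in wild type and 2035, 2186 and 2311 CPM in transgenic skin, giving a log2 fold change of 0.06 (standard error 0.12, FDR 0.8). Complex IV passes the electrons to oxygen. *mt-Co1* had 7655, 10300 and 10180 CPM in wild type and 9120, 9160 and 9686 CPM in transgenic skin, giving a log2 fold change of -0.01 (standard error 0.13, interval -0.30 to 0.29). *mt-Co2* and *mt-Co3* had log2 fold changes of 0.04 (standard error 0.11) and -0.06 (standard error 0.12). In all 3 genes the lowest library was wild type replicate 1, and wild type replicate 2 was above each transgenic library for *mt-Co1* and *mt-Co3* but not for *mt-Co2*, in which transgenic replicate 3 was the highest.

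Complex V, the ATP synthase, has a pair of mitochondrial subunits whose genes share bases. The last 43 bases of *mt-Atp8* are the first 43 of *mt-Atp6*, in another reading frame. They are shown, from the GENCODE M21 transcripts and in capitals, since a read that covers them overlaps both genes (chrM:7897-7969 and chrM:7927-7999, plus strand).
mt-Atp8 end: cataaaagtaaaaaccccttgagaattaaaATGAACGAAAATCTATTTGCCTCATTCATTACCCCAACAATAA
mt-Atp6 start: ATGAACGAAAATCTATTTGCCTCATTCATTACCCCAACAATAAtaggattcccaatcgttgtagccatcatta
*mt-Atp6* had 1771, 2353 and 2536 CPM in wild type and 2302, 2395 and 2359 CPM in transgenic skin, giving a log2 fold change of 0.08 (standard error 0.13, FDR 0.723). *mt-Atp8* had 184.3, 245.5 and 273.5 CPM in wild type and 240.3, 248.6 and 228.9 CPM in transgenic skin, giving a log2 fold change of 0.03 (standard error 0.14, FDR 0.911). For both, the 3 transgenic libraries lay within the wild type range and close to each other. Per base, *mt-Atp6* stood 2.78 to 3.09 times above *mt-Atp8* in the 6 libraries, although the genes are carried on 1 transcript. How the counting treated reads in the shared bases is not given in the sources used here.

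**Figure D3:**
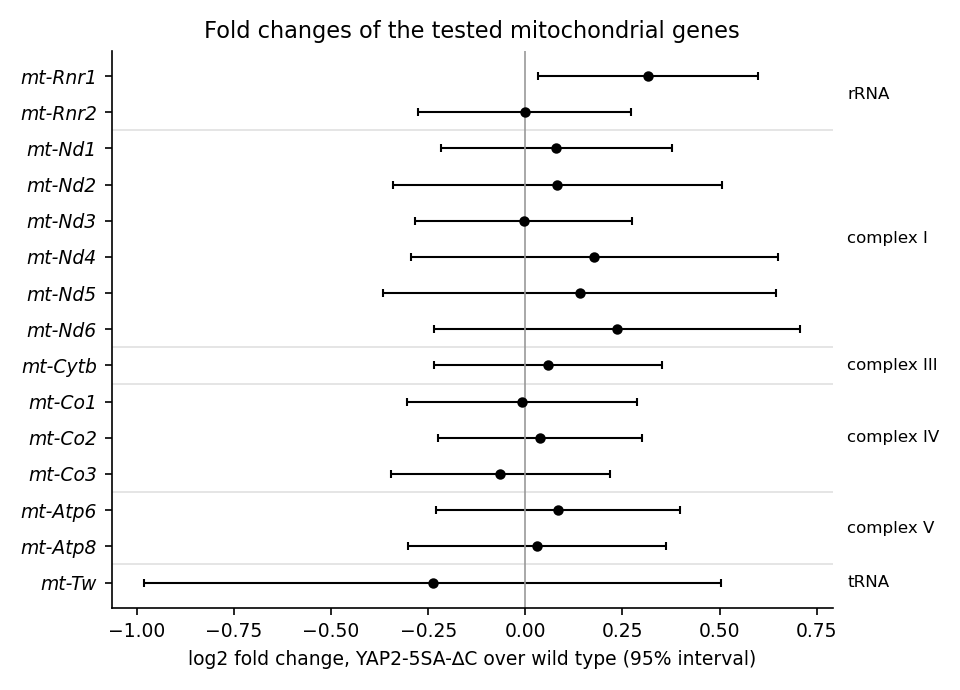
Log2 fold change of YAP2-5SA-∆C over wild type (points) with 95% intervals from edgeR's quasi-likelihood test for the 15 tested mitochondrial genes, by class and complex. The interval of *mt-Rnr1*, 0.03 to 0.60, is the only interval that does not cross 0, and that of *mt-Tw* is the widest, from -0.98 to 0.51.

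Over the 12 mRNAs the median log2 fold change was 0.07, with 9 above 0 and values from -0.06 to 0.24, against a median of -0.01 over all genes tested. The summed level of the 12 was 20637, 27286 and 27655 CPM in wild type and 24965, 25456 and 26318 CPM in transgenic skin. Wild type replicate 1 was thus the lowest of the 6 and the other wild type libraries the highest. Without that library the median fell to -0.06 and 2 of the 12 were above 0, whereas leaving out each of the other libraries in turn gave medians from 0.04 to 0.18. Skeletal muscle markers (15 genes, such as *Acta1* and *Ckm*, none at 0 in every library) summed to 4440, 19960 and 16570 CPM in wild type and 10670, 7670 and 4386 CPM in transgenic skin, so they too were low in wild type replicate 1, although transgenic replicate 3 was as low in muscle markers and not low in mitochondrial mRNA. Their part in the mRNA levels was not tested.

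The make-up of the mRNA pool does not depend on how libraries are scaled. *mt-Co1* gave the steadiest share, with 36.0% to 37.8% of the mRNA counts in the 6 libraries. Complex IV as a whole took 65.3%, 65.5% and 62.9% in wild type and 63.3%, 61.0% and 64.5% in transgenic skin, and complex I took 16.9%, 16.6% and 18.6% in wild type and 18.3%, 20.01% and 16.9% in transgenic skin. For each of the 12 genes the shares of the genotypes overlapped. The genes whose shares varied most between mice were *mt-Nd4*, *mt-Nd5* and *mt-Nd6*. *mt-Nd5* ran from 2.03% (transgenic replicate 3) to 3.26% (transgenic replicate 2), *mt-Nd4* from 2.70% (wild type replicate 2) to 4.02% (transgenic replicate 2), and *mt-Nd6* from 0.153% (wild type replicate 2) to 0.264% (transgenic replicate 3). The extremes of *mt-Nd5* therefore came from the same genotype. *mt-Nd6* took its highest shares in transgenic replicate 3 and wild type replicate 1 (0.228%), the pair of libraries with the fewest muscle marker counts, and a link between these values was not tested. Per base, *mt-Nd5* stood 2.83, 4.27 and 5.04 times above *mt-Nd6* in wild type and 4.97, 5.03 and 2.18 times in transgenic skin.

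**Figure D4:**
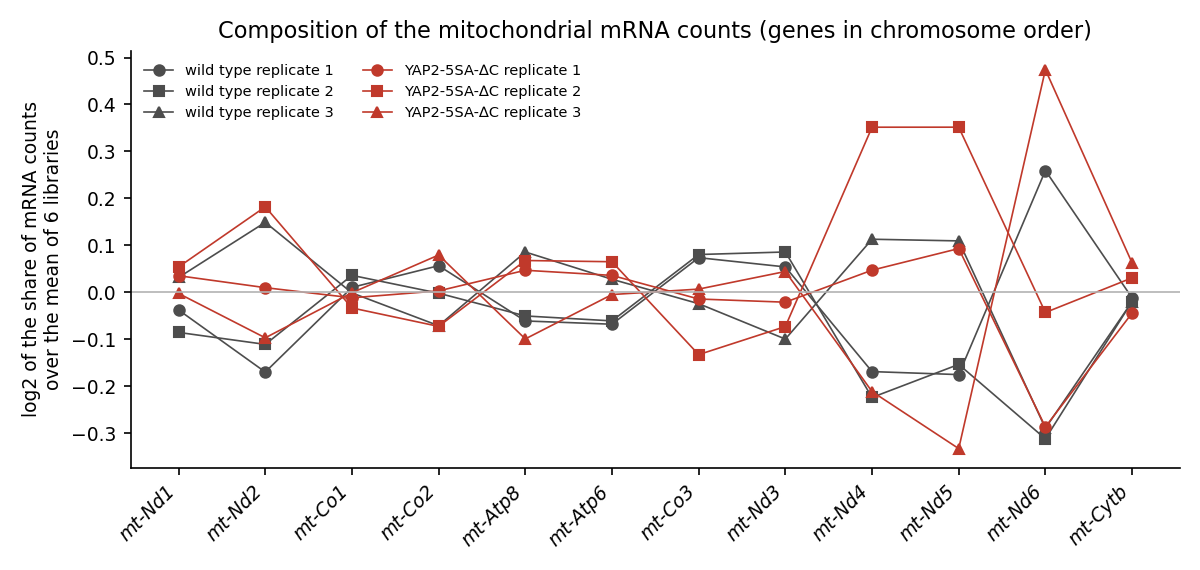
Share of each gene in the mitochondrial mRNA counts of a library, as log2 over the mean share of the 6 libraries, with genes in chromosome order and replicates marked by symbol (wild type grey, transgenic red). The lines stay together from *mt-Co1* to *mt-Atp6* and part at *mt-Nd4*, *mt-Nd5* and *mt-Nd6*, where each genotype has libraries on either side of 0 for all 3 genes.

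The tRNAs were at the limit of what these libraries counted. The 11 tRNA genes together held 58, 97 and 47 counts in wild type and 78, 71 and 75 counts in transgenic skin. Those with the most counts are shown, in the strand of the tRNA with the anticodon in capitals, because all are shorter than the 75-base reads and several lie over the end of a neighbour (*mt-Tw* over that of *mt-Nd2*, *mt-Ti* over that of *mt-Nd1*, *mt-Ts1* over that of *mt-Co1* on the other strand, and *mt-Ti* and *mt-Tq* over each other on opposite strands).
mt-Tw (tryptophan, chrM:4950-5016, plus strand): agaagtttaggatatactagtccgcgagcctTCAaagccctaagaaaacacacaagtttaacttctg
mt-Ti (isoleucine, chrM:3706-3774, plus strand): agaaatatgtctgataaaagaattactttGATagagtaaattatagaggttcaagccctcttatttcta
mt-Tq (glutamine, chrM:3772-3842, minus strand): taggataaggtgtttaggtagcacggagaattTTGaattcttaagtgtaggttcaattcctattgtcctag
mt-Ts1 (serine, chrM:6870-6938, minus strand): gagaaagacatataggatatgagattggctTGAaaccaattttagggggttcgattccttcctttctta
mt-Tp (proline, chrM:15356-15422, minus strand): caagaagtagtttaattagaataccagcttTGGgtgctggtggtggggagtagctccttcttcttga
*mt-Tw* had 23, 24 and 10 counts in wild type and 22, 10 and 19 counts in transgenic skin, with a log2 fold change of -0.24 (standard error 0.31, FDR 0.669). The low libraries were wild type replicate 3 and transgenic replicate 2, so the groups overlapped, and with an interval of -0.98 to 0.51 no difference was detectable at this depth. The 10 tRNA genes below the filter held 0 to 20 counts a library. Of these, *mt-Tp* had 4, 10 and 5 counts in wild type and 11, 13 and 12 in transgenic skin, the only member whose groups did not overlap. It was picked out after its values were seen, and in the fit without a low-count filter, where 0 of the 11 tRNA genes and 4.76% of all 26579 genes were called, the fitted log2 difference was 0.82 (standard error 0.42) at an unadjusted p of 0.0731 and an FDR of 0.353 by edgeR's quasi-likelihood test. *mt-Tc* had 1, 1 and 0 counts in wild type and 0 in each transgenic library, where a count of 0 allows up to 3 counts, or 0.167 to 0.187 CPM.

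Copies of mitochondrial DNA in the nuclear genome bear on these values, since the authors counted uniquely mapped reads. The share of the 75-base windows of a gene that matched an annotated nuclear transcript with at most 2 mismatches was 100% for *mt-Co2*, 99.9% for *mt-Co3*, 99.5% for *mt-Atp6*, 98.9% for *mt-Nd3*, 82.5% for *mt-Co1* and 61.5% for *mt-Nd4*. It was 19.2% to 20.9% for *mt-Nd2*, *mt-Nd5* and *mt-Nd6*, 3.93% for *mt-Cytb*, 0.928% for *mt-Rnr2*, and 0 for *mt-Rnr1*, *mt-Nd1* and *mt-Atp8*. For *mt-Nd4l*, which had no row, it was 98.7%, also with exact matches only. With exact matches only, the share was 97.8% to 99.9% for *mt-Co2*, *mt-Co3*, *mt-Atp6* and *mt-Nd3*. It was then 61.5% for *mt-Nd4*, 39.8% for *mt-Co1*, 5.71% for *mt-Nd2*, 1.66% for *mt-Nd5*, and 0 for *mt-Nd6*, *mt-Cytb* and *mt-Rnr2*. *mt-Co2* held 33017 to 62142 counts a library and was among the highest mRNAs per length. Of the 17 nuclear genes with a match of at most 2 mismatches, 6 had a row and none reached 1 CPM in any library. The highest count was 19, on Gm13340. That pseudogene lies on chromosome 2 and has 37 mismatches to *mt-Co1* over 1545 bases (97.6% identity). The first 75 bases of both are shown, with their differing bases in capitals (C54A and A60G, the *mt-Co1* base first, counted from 1 at the 5′ end), to give the scale on which a read is placed in either gene (chrM:5328-5402, plus strand, and chr2:22589573-22589647, minus strand, GRCm38).
mt-Co1 window: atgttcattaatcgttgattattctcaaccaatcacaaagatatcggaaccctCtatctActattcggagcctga
Gm13340 window: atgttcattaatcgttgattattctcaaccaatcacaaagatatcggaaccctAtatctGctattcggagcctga
Whether reads of the matched genes were lost was not tested, and copies outside annotated transcripts were not searched.

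The nuclear genes that serve mitochondrial DNA were described beside its own. Of 50 genes for its upkeep and expression 0 were called by edgeR's quasi-likelihood test, 9 (18% against 26.2% of all genes tested) had an unadjusted p below 0.05, and the groups did not overlap for 12, of which 10 were lower and 2 higher in transgenic skin (the share over all genes tested is the 33.8% given above). Their median log2 fold change was -0.06, with 14 above 0. *Mgme1*, an exonuclease that trims mitochondrial DNA, had 9.60, 10.1 and 9.12 CPM in wild type and 7.44, 6.17 and 7.35 CPM in transgenic skin, giving a log2 fold change of -0.46 (standard error 0.12, FDR 0.0715). *Pde12*, which removes poly(A) tails from mitochondrial mRNAs, had 54.2, 48.0 and 47.1 CPM in wild type and 60.0, 72.9 and 61.3 CPM in transgenic skin, giving a log2 fold change of 0.38 (standard error 0.10, FDR 0.0723). In either gene the groups did not overlap and the FDR missed the threshold. *Pde12* alone among the 50 was called in some alternative fits, which were DESeq2 and the fit without a low-count filter.

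*Rexo2* (log2 fold change -0.28, FDR 0.0792), an exonuclease for short RNAs in mitochondria, and *Exog* (-0.41, FDR 0.0869), a mitochondrial nuclease, were the next 2 by p among the lower genes. Among the higher, *Ppargc1b*, a co-activator of mitochondrial genes of the nucleus, came next with a log2 fold change of 0.45 (FDR 0.128), and *Polrmt*, the mitochondrial RNA polymerase, had 0.11 (FDR 0.390). *Tfam*, which packs mitochondrial DNA and starts its transcription, was named after its value was seen, with a log2 fold change of -0.206 (standard error 0.065, FDR 0.108) and groups that did not overlap.

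The subunits made in the nucleus for the same complexes were described next. Of 80 nuclear-encoded subunits tested, 0 were called, 4 (5%) had an unadjusted p below 0.05 and 65 (81.2%) had a log2 fold change at or below 0, with a median of -0.10. Over all genes tested 2.22% were called, 26.2% had an unadjusted p below 0.05 and 52.4% were at or below 0. By complex the medians were -0.10 over 36 subunits of complex I, -0.04 over 4 of complex II, which has no mitochondrial subunit, -0.07 over 9 of complex III, -0.11 over 14 of complex IV and -0.09 over 17 of complex V. The lowest p in each direction belonged to *Ndufs5* of complex I (log2 fold change -0.26, FDR 0.12) and to *Ndufa4* of complex IV (0.22, FDR 0.156). Among 76 proteins of the mitochondrial ribosome 0 were called, 12 (15.8%) had an unadjusted p below 0.05 and the median was -0.08, with *Mrpl3* (-0.29, FDR 0.0635) and *Mrpl41* (0.26, FDR 0.115) at the lowest p. Leaving out 1 library at a time gave 4 to 9 of the 76 with an unadjusted p below 0.05 by edgeR and a median of -0.108 to -0.043, other scalings gave 6 or 7, and the likelihood-ratio test gave 1. Of the 80 subunits, 14 had an unadjusted p below 0.05 without wild type replicate 1, 8 without transgenic replicate 3, and 1 to 3 when another library was left out. In all these fits 0 genes of either list were called. The median of the nuclear-encoded subunits ran from -0.15 to 0.00 when 1 library at a time was left out, and it was 0.00, with 42 of 80 above 0, without wild type replicate 2. By library, the median of these subunits against the wild type mean (log2) was highest in wild type replicate 2 (0.17) and transgenic replicate 3 (0.02) and between -0.16 and -0.05 in the other 4. The medians of the mitochondrial mRNAs (0.07) and of the nuclear subunits lay on either side of 0 with all libraries but both below 0 (-0.06 and -0.15) without wild type replicate 1, and their difference was not tested.

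**Figure D5:**
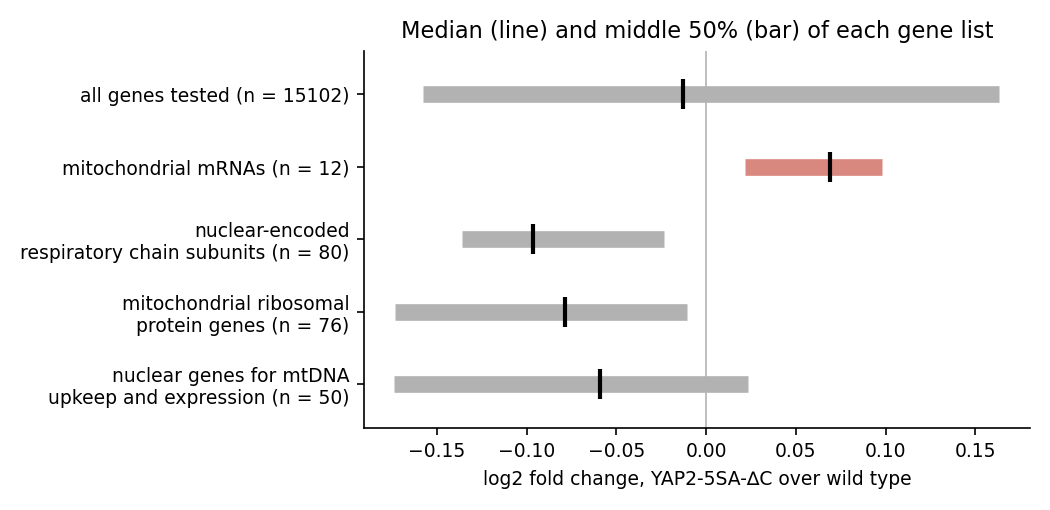
Median (black line) and middle 50% (bar) of the log2 fold changes of YAP2-5SA-∆C over wild type, for all 15102 genes tested, the 12 mitochondrial mRNAs (red) and 3 lists of nuclear genes for mitochondria. The median is 0.07 for the mitochondrial mRNAs and between -0.10 and -0.06 for the nuclear lists, and 0 genes of the 4 lists were called.

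The summed level of 4 of the 10 lists of cell type markers did not overlap between the genotypes (the share of single genes is 33.8% of all tested), but few of their genes were called by edgeR's quasi-likelihood test. Markers of basal keratinocytes (6 genes) summed to 3312 to 4052 CPM in wild type and 5580 to 7205 CPM in transgenic skin, those of macrophages (6 genes) to 420 to 508 and 619 to 682 CPM, and those of the sebaceous gland (5 genes) to 192 to 382 and 515 to 609 CPM. Of the sebaceous sum, *Far2* alone held 354 to 432 CPM in transgenic skin, and *Mc5r* ran lower there (log2 fold change -0.25, FDR 0.498 by edgeR). Markers of the hair shaft and inner root sheath (8 genes) summed to 12530 to 15984 CPM in wild type and 1323 to 8465 CPM in transgenic skin. At an FDR below 0.05, 1 of the 6 basal keratinocyte markers (*Krt14*) and 2 of the 6 macrophage markers (*Csf1r* and *Mrc1*) were called, all higher in transgenic skin, and 0 of the 5 sebaceous and 0 of the 8 hair markers. Over all genes tested, 2.22% were called. Transgenic replicate 2, the library with the highest *mt-Rnr1* level, was also the highest in basal keratinocyte markers and the lowest in hair markers. It was likewise the highest in suprabasal keratinocyte, fibroblast and sebaceous gland markers and the lowest in red blood cell markers, so no single cell type stood out. White adipocyte markers (10 genes) summed to 989 to 1345 and 923 to 1405 CPM, and brown adipocyte markers (5 genes) to 43.0, 96.1 and 40.5 CPM in wild type against 57.3, 66.8 and 156 CPM in transgenic skin. *Ucp1*, the uncoupling protein that defines brown fat, was singled out after its values were seen and stood at 37.2 CPM in wild type replicate 2 and 72.7 CPM in transgenic replicate 3, and below 1 CPM in the other 4 libraries. The other 4 brown adipocyte markers did not single out that pair: they summed to 42.2, 58.9 and 39.6 CPM in wild type and 57.1, 66.6 and 83.8 CPM in transgenic skin, with each of the pair the highest of its genotype but wild type replicate 2 below transgenic replicate 2. Among them *Dio2*, a deiodinase that activates thyroid hormone, was called higher in transgenic skin, with 11.9, 12.3 and 12.2 CPM in wild type and 18.6, 26.1 and 20.7 CPM in transgenic skin (log2 fold change 0.85, FDR 0.0412 by edgeR). *Cidea*, a lipid droplet protein, had 19.8, 18.9 and 7.88 CPM against 24.5, 31.4 and 44.8 CPM (FDR 0.112). The other 2 ran lower and were not called, *Cox8b* with 4.28, 17.6 and 11.1 CPM against 8.10, 4.93 and 11.02 CPM (log2 fold change -0.46, FDR 0.601) and *Ppargc1a* with 6.31, 10.2 and 8.36 CPM against 5.83, 4.17 and 7.22 CPM (-0.53, FDR 0.227). The pair of libraries with *Ucp1* above 1 CPM was also the highest of the 6 in the share of counts on mitochondrial genes (22.3% and 23.1%), in the rRNA share (19.6% and 20.4%) and in *mt-Rnr2* (186200 and 185000 CPM). With both left out, a fit added after seeing the data, 0 of 14 members tested were called and 0 had an unadjusted p below 0.05 by edgeR, where 0.0% of all 14730 genes were called and 15.8% had an unadjusted p below 0.05, and the log2 fold change of *mt-Rnr1* was 0.28 (FDR 0.495). Markers of suprabasal keratinocytes, fibroblasts and red blood cells overlapped as well, at 6441 to 7861 and 7727 to 13810, 9431 to 12775 and 12229 to 15904, and 95.1 to 148 and 42.5 to 98.1 CPM. None of the 10 lists held a marker at 0 in every library, and the part of these cell types in the levels of the mitochondrial genes was not tested.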

How the data were processed

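The deposited values are raw counts per Ensembl gene, which the authors made with HTSeq from uniquely mapped reads after alignment by TopHat2 (GRCm38). The submitters' processing notes name TopHat2 2.0.12 and Bowtie2 2.1.0. The annotation release and strand setting are not given in the sources used here. Names and positions came from GENCODE M21, which lacks 558 of the identifiers.

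Genes reaching 1 CPM in 3 or more of the 6 libraries were kept, scaled by TMM and tested for genotype with glmQLFit and glmQLFTest of edgeR 4.0.16 (R 4.3.3) in their default form, with Benjamini-Hochberg adjustment over the 15102 genes. The standard error is the log2 fold change divided by the square root of F. The bias-adjusted form was set aside as an alternative, a choice made after both were seen, because its prior variance rose to 20.2 at the level of *mt-Rnr2*, whose own variance was 0.153 (0.196 and 0.146 in the default form). limma 3.58.1 and DESeq2 1.42.0 served as alternatives. On simulated counts for these genes, with 200 changed by 1 on the log2 scale, the main test recovered 75.0% with 5.06% false calls. Changes as small as those fitted for the members (-0.24 to 0.32) were not simulated, so this recovery does not apply to them.

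The members and lists were chosen with earlier results of these data known. Named genes were all members, the 3 genes of lowest p in each direction from the list for mitochondrial DNA upkeep and expression and any called there, and 1 in each direction from the other nuclear lists, with *Tfam*, *Ucp1* and the marker genes named added after their values were seen.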

Additional observations from a re-analysis of the deposited data

How the results depend on the processing

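The count of called members was 0 in every alternative fit, of 15 tested (25 without the low-count filter). The count over all genes tested, 335, was 1265 without that filter, 1568 with the likelihood-ratio test and 1583 with DESeq2. It was 148 without wild type replicate 1, 87 without transgenic replicate 1, 819 without transgenic replicate 2, and 0 by edgeR when replicate 2 or 3 of wild type or replicate 3 of the transgenic mice was left out (2703 to 3708 genes with an unadjusted p below 0.05). With both libraries above 1 CPM of *Ucp1* left out, 0 of 14730 genes were called (2327 with an unadjusted p below 0.05), 0 of 14 members among them, and *mt-Rnr2* was at 0.003, *mt-Co1* at 0.037, *mt-Nd3* at 0.049 and *mt-Nd6* at -0.067. With the replicate number as a block it was 0 (2962 genes had an unadjusted p below 0.05), and 0 members were called. Same-numbered libraries did not deviate together (correlations -0.332, -0.228 and -0.05), so the numbers were not taken as pairs. Of the nuclear genes for upkeep and expression 1, *Pde12*, was called by DESeq2 and 1 without the filter. The 9 of 50 with an unadjusted p below 0.05 became 5 to 11 with 1 library left out. The cause of these changes was not tested.

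Log2 fold changes close to 0 changed sign. *mt-Rnr2* was at 0.009 with RLE factors, 0.02 with upper-quartile factors, 0.008 when scaled without mitochondrial genes, 0.01 without the filter, 0.001 with a minimum of 10 counts, 0 with voom, 0.009 with DESeq2 and 0.001 with the replicate block. With RLE, upper-quartile, scaling without mitochondrial genes, no filter, voom, DESeq2 and the replicate block, *mt-Co1* was at 0.002, 0.013, 0.001, 0.003, 0.001, 0.002 and 0.004 and *mt-Nd3* at 0.006, 0.017, 0.006, 0.007, 0.005, 0.006 and 0.005. Leaving out 1 library moved *mt-Rnr2* from -0.08 to 0.062, *mt-Co1* from -0.13 to 0.064, *mt-Nd3* from -0.108 to 0.1, *mt-Co2* from -0.055 to 0.104, *mt-Co3* from -0.171 to 0.02, *mt-Nd1* from -0.043 to 0.196, *mt-Nd2* from -0.088 to 0.273, *mt-Nd4* from 0.025 to 0.38, *mt-Nd5* from -0.022 to 0.325, *mt-Nd6* from -0.031 to 0.427, *mt-Atp6* from -0.05 to 0.198, *mt-Atp8* from -0.111 to 0.163, *mt-Cytb* from -0.059 to 0.137 and *mt-Tw* from -0.398 to 0.046.

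Without rRNA in the denominator the mRNA share rose to 3.03% in wild type and 3.20% in transgenic skin, and the tRNA share 0.000510% and 0.000549%. Without ENSMUSG00000045999, an alternative added after seeing the data like the bias-adjusted test and the fit without the *Ucp1* libraries, the mRNA share was 2.53% and 2.60%. Counting only windows with no nuclear match widened the range of mRNA levels per length from 71.7-fold to 292-fold, by construction, since *mt-Co1* keeps all its counts over fewer windows. *mt-Nd1* made up 88.9% and 89.2% of the counts on the genes without a nuclear match, *mt-Nd1* and *mt-Atp8*.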
